A study of Mus musculus with 12 samples.

Results

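The 9 genes Il10, Il10ra, Il10rb, Jak2, Stat3, Socs1, Socs2, Socs3 and Cish, which encode interleukin 10, the chains of its receptor, STAT3, the kinase JAK2 and inhibitors of the SOCS family, were followed across 12 RNA-seq libraries of bone-marrow-derived macrophages (BMDMs). They were chosen by symbol, with earlier results of these data known. All 9 were found among the 55401 genes of the table, of which 13369, and 8 of the 9, had enough reads to be tested. The cells were Irx3-/- throughout, on the C57BL/6J background, so the control cells also lack this homeobox transcription factor. Adeno-associated virus had been used to overexpress IRX3_S389A or IRX3_S361A, in which alanine takes the place of 1 serine, IRX3_WT, the unchanged protein, or GFP as the control, with 3 libraries each. All cells had been differentiated for 7 days with 20 nM M-CSF and then stimulated for 4 h with LPS (100 ng/ml), a bacterial cell wall product sensed by Toll-like receptor 4. Every difference below is therefore one between constructs in stimulated cells.

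Interleukin 10 is a cytokine with which macrophages restrain their own response to bacterial products. It binds a receptor made of a ligand-binding chain (Il10ra) and a chain shared with related cytokines (Il10rb), which activates the kinases JAK1 and TYK2 and then the transcription factor STAT3. Socs3 is a well known STAT3 target gene, and its product blocks signalling through gp130, the shared chain of the interleukin 6 receptor. SOCS1 restrains interferon receptors, and CISH and SOCS2 restrain receptors that use STAT5. JAK2 serves the receptors for GM-CSF, interferon gamma and growth hormone.

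Recovered reads per library ranged from 17149058 to 20108002. Values are normalized counts, that is gene counts divided by 1 size factor per library, and 3 reads correspond to 2.67 to 3.41 of them. The labels do not say whether the libraries of a construct came from separate animals or cultures, so p-values measure only the spread between these libraries, which may be technical. Irx3 had 0 reads in the 3 GFP libraries and averaged 187 ± 20.2 normalized counts with IRX3_S389A, 349 ± 21.5 with IRX3_S361A and 177 ± 16.3 with IRX3_WT (SD, n = 3 each). In comparisons with IRX3_S361A, the substitution and the higher Irx3 level cannot be told apart. All 8 macrophage markers were expressed, with summed levels of 393368 to 406993 normalized counts with IRX3_S389A, 416752 to 429929 with IRX3_S361A, 389296 to 393725 with IRX3_WT and 359792 to 370143 with GFP. Of these markers Lyz2 alone had 208870 to 254510 normalized counts over all libraries, so the sum follows chiefly this gene. The 8 neutrophil markers (Ly6g, Mpo and Elane at 0) summed to 31.5 to 49.3 with IRX3_S389A, 28.3 to 48.7 with IRX3_S361A, 43.2 to 63.3 with IRX3_WT and 26.7 to 40.8 with GFP. The 5 stromal markers summed to 31.2 to 49.6 with IRX3_S389A, 21.1 to 61.6 with IRX3_S361A, 17.1 to 20.7 with IRX3_WT and 14.7 to 24.1 with GFP. The 7 lymphocyte markers summed to 23.8 to 35.6 with IRX3_S389A, 16.1 to 24.3 with IRX3_S361A, 16.7 to 35.3 with IRX3_WT and 18.7 to 37.1 with GFP, and the 5 mast cell and basophil markers to 0 to 4.92 over all libraries. The 6 dendritic cell markers summed to 144 to 186 with IRX3_S389A, 137 to 160 with IRX3_S361A, 161 to 170 with IRX3_WT and 117 to 151 with GFP. The 5 erythroid and megakaryocyte markers summed to 3349 to 3553 with IRX3_S389A, 3498 to 3693 with IRX3_S361A, 4098 to 4302 with IRX3_WT and 2541 to 3045 with GFP, and Pf4 was the only one of them with a mean of at least 10. The part of these marker shifts in the results was not tested.

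RefSeq promoter windows (GRCm38.p6, 250 bases before to 50 after the annotated start) matched 5 of the 9 genes, Socs1, Socs3, Cish, Stat3 and Jak2. They were searched for the STAT motif TTCNNNGAA, which reads the same on both strands, and on both strands for GAAANNGAAA, the core of interferon-stimulated response elements. The 3 windows with a match are shown. Whether these motifs bear on the levels of the genes was not tested. Capitals mark the matches.
Cish, chr9:107296409-107296708, plus strand: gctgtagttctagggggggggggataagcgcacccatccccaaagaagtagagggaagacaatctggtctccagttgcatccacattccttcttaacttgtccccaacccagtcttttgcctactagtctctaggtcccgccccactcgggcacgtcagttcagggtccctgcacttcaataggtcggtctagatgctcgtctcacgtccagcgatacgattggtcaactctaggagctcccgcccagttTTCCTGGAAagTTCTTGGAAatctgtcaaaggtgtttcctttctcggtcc
Socs3, chr11:117969317-117969616, minus strand: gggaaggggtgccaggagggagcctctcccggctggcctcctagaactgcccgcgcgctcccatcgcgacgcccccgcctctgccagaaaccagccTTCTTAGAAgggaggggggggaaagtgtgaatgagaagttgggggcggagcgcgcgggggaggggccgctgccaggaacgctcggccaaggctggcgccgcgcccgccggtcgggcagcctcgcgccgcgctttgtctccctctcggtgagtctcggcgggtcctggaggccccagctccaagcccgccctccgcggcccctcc
Socs1, chr16:10785487-10785786, minus strand: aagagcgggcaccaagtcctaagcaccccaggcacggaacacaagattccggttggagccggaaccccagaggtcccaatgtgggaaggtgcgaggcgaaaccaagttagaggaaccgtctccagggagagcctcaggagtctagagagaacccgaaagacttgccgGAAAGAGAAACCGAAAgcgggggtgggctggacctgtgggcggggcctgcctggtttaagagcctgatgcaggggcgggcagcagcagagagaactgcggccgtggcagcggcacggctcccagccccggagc
The Cish window held 2 STAT matches, at positions 1 to 9 and 12 to 20, counted from 1 at the annotated start. The Socs3 window held 1, at positions -154 to -146. Both windows lie wholly inside the GENCODE spans of their genes (107296026 to 107302784 for Cish, 117966079 to 117970047 for Socs3). Their matches are therefore not upstream of the outermost GENCODE start of either gene. The Socs1 window held no STAT match but 2 overlapping matches to the interferon core, at -83 to -74 and -77 to -68. Of 32851 RefSeq windows of the same length, 8.3% held the STAT motif, 0.457% held it at least 2 times, and 3.44% held the interferon core. The windows of Stat3 and Jak2 held neither run of letters.

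Il10 (ENSMUSG00000016529.5, mm10 chromosome 1, 131019845 to 131024974), the ligand, was higher with each IRX3 construct than with GFP. Its normalized counts were 501, 589 and 538 with IRX3_S389A, 455, 482 and 462 with IRX3_S361A, 526, 535 and 512 with IRX3_WT, and 273, 355 and 298 with GFP. All 9 libraries with an IRX3 construct lay above all 3 GFP libraries. Relative to GFP, Il10 rose by 0.77 on the log2 scale with IRX3_WT (SE 0.08, limma adjusted p = 9.68e-10), by 0.60 with IRX3_S361A (adjusted p = 4.16e-07) and by 0.82 with IRX3_S389A (adjusted p = 2.81e-10). In bulk RNA, a change in the share of cells that express a gene and a change in RNA per cell cannot be told apart. Neither mutant passed the test against IRX3_WT. The log2 difference from IRX3_WT was 0.05 for IRX3_S389A (95% interval -0.12 to 0.22, limma adjusted p = 0.784) and -0.17 for IRX3_S361A (-0.34 to 0.0029, adjusted p = 0.195), whose 3 libraries nonetheless lay below those of IRX3_WT. By mean level the constructs ran IRX3_S389A, IRX3_WT, IRX3_S361A and GFP, and of these neighbours only IRX3_S361A and GFP passed the test.

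The chains of the receptor did not move together. Il10ra (ENSMUSG00000032089.16, mm10 chromosome 9, 45253837 to 45269149), which binds the ligand, had normalized counts of 5406, 5549 and 5254 with IRX3_S389A, 5293, 4855 and 4742 with IRX3_S361A, 5247, 5680 and 5289 with IRX3_WT, and 4363, 4027 and 4241 with GFP. Every IRX3 library was above every GFP library. Relative to GFP, Il10ra rose by 0.36 on the log2 scale with IRX3_WT (SE 0.04, limma adjusted p = 7.11e-09), by 0.24 with IRX3_S361A (adjusted p = 3.72e-05) and by 0.36 with IRX3_S389A (adjusted p = 8.44e-09). With IRX3_S361A it was lower than with IRX3_WT by a log2 change of -0.12 (limma adjusted p = 0.0433), although the libraries overlapped. That call ended without GFP replicate 3, IRX3_WT replicate 2, IRX3_S361A replicate 2 or 3, or IRX3_S389A replicate 1 (adjusted p up to 0.242), with libraries scaled to equal totals (0.349), with only the compared groups in the fit (0.0699) and with edgeR (0.0649). With edgeR on 9 libraries, of which 1 was IRX3_S361A, its log2 change was -0.03 (adjusted p = 0.812). IRX3_S389A and IRX3_WT averaged 5403 ± 147 and 5405 ± 239 normalized counts (SD, n = 3 each), with a 95% interval of -0.09 to 0.09 on the log2 difference.

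Il10rb (ENSMUSG00000022969.13, mm10 chromosome 16, 91406164 to 91425834), the shared chain, stayed between 1408 and 1745 normalized counts in all 12 libraries. Its means were 1582 ± 35.7 with IRX3_S389A, 1500 ± 86.9 with IRX3_S361A, 1565 ± 21.0 with IRX3_WT and 1649 ± 88.3 with GFP (SD, n = 3 each). The libraries overlapped in every comparison. Against GFP the log2 difference was -0.07 for IRX3_WT (95% interval -0.18 to 0.03, limma adjusted p = 0.262) and -0.06 for IRX3_S389A (-0.16 to 0.05, adjusted p = 0.411), while IRX3_S361A passed the test at -0.14 (adjusted p = 0.0437). That call ended without GFP replicate 1 or 3, IRX3_S361A replicate 2 or 3, or IRX3_S389A replicate 2 (adjusted p up to 0.267), with no filter on low genes (0.0988) and with edgeR on the 9 libraries (-0.07, adjusted p = 0.584). With libraries scaled to equal totals Il10rb also passed the test for IRX3_WT (-0.25, adjusted p = 9.56e-05) and for IRX3_S389A (-0.23, adjusted p = 0.000356), both below GFP. Another annotated gene on the same strand, Gm21970, covers 14.9% of the exon bases of Il10rb, and reads there could belong to either. Per kilobase of exon, the ratio of Il10ra to Il10rb within a library was 3.72 ± 0.04 with IRX3_S389A, 3.60 ± 0.09 with IRX3_S361A, 3.76 ± 0.15 with IRX3_WT and 2.78 ± 0.06 with GFP (SD, n = 3 each). The highest GFP ratio was 2.83 and the lowest of the other 9 was 3.50.

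**Figure D1:**
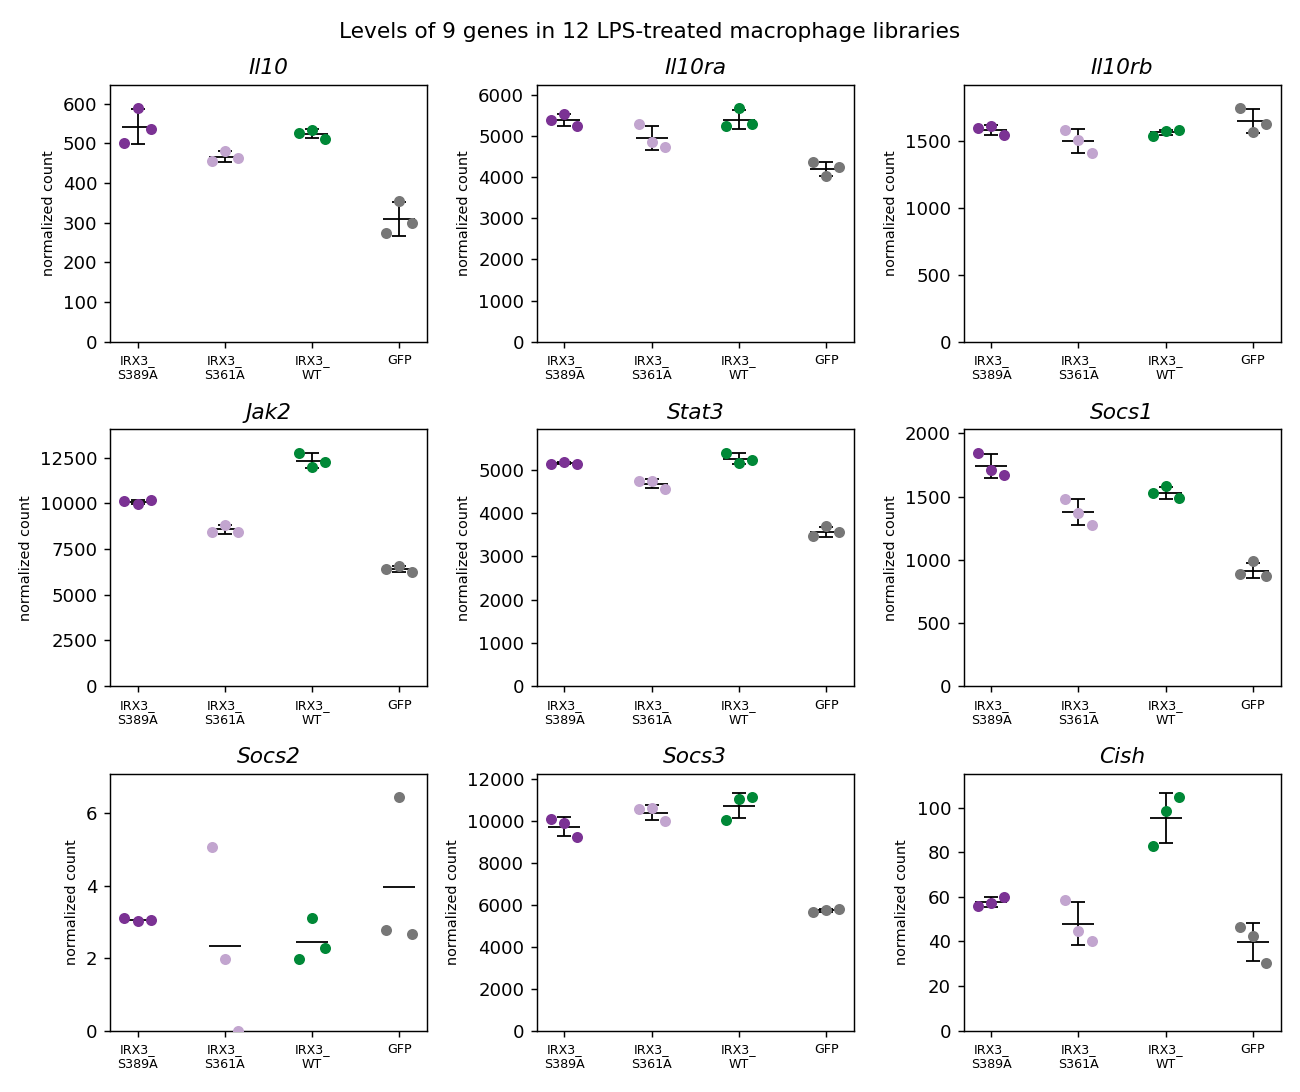
Normalized counts (linear axes from 0) of the 9 genes, 1 panel each, in the 3 libraries of each construct (points), with the mean (black line) and, except for Socs2, which is near the counting floor, the SD. GFP libraries are the lowest for Il10, Il10ra, Jak2, Stat3, Socs1 and Socs3, and Cish stands out with IRX3_WT at 82.7, 98.6 and 105.

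Jak2 (ENSMUSG00000024789.13, mm10 chromosome 19, 29251828 to 29313080), the kinase, put all 4 constructs in separate places. Its normalized counts were 10127, 9943 and 10177 with IRX3_S389A, 8442, 8841 and 8446 with IRX3_S361A, 12776, 11978 and 12247 with IRX3_WT, and 6409, 6583 and 6265 with GFP. No construct overlapped another, and the order was IRX3_WT, IRX3_S389A, IRX3_S361A and GFP. Jak2 rose by 0.94 on the log2 scale with IRX3_WT relative to GFP (SE 0.04, limma adjusted p = 7.89e-23), by 0.65 with IRX3_S389A (adjusted p = 7.38e-18) and by 0.42 with IRX3_S361A (adjusted p = 3.87e-12). Relative to IRX3_WT it changed by -0.29 with IRX3_S389A (limma adjusted p = 9.98e-08) and by -0.52 with IRX3_S361A (adjusted p = 3.21e-14). IRX3_S389A exceeded IRX3_S361A by 0.23 (limma adjusted p = 7.49e-06). All 6 calls were kept in each of the 12 fits that left out 1 library.

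Stat3 (ENSMUSG00000004040.16, mm10 chromosome 11, 100885098 to 100939540), the transcription factor that the receptor activates, had normalized counts of 5137, 5185 and 5142 with IRX3_S389A, 4756, 4741 and 4559 with IRX3_S361A, 5400, 5159 and 5234 with IRX3_WT, and 3472, 3697 and 3558 with GFP. GFP lay lowest and IRX3_S361A next, and IRX3_S389A and IRX3_WT overlapped at the top. Relative to GFP, Stat3 rose by 0.56 on the log2 scale with IRX3_WT (SE 0.04, limma adjusted p = 3.96e-15), by 0.53 with IRX3_S389A (adjusted p = 2.56e-14) and by 0.39 with IRX3_S361A (adjusted p = 1.51e-10). With IRX3_S361A it was below IRX3_WT by a log2 change of -0.17 (limma adjusted p = 0.00143), a call that ended with edgeR on the 9 libraries (0.114). IRX3_S389A did not pass the test against IRX3_WT (log2 difference -0.03, 95% interval -0.11 to 0.05, limma adjusted p = 0.676). The excess of 0.14 with IRX3_S389A over IRX3_S361A (limma adjusted p = 0.0133) ended as a call without IRX3_S361A replicate 3 (0.0968) or IRX3_S389A replicate 2 (0.0568), with equal totals (0.150) and with edgeR on the 9 libraries (0.403). Per kilobase of exon, the ratio of Jak2 to Stat3 was 3.70 ± 0.06 with IRX3_S389A, 3.47 ± 0.09 with IRX3_S361A, 4.44 ± 0.04 with IRX3_WT and 3.40 ± 0.08 with GFP (SD, n = 3 each). The lowest IRX3_WT ratio was 4.40 and the highest of the other 9 was 3.75.

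**Figure D2:**
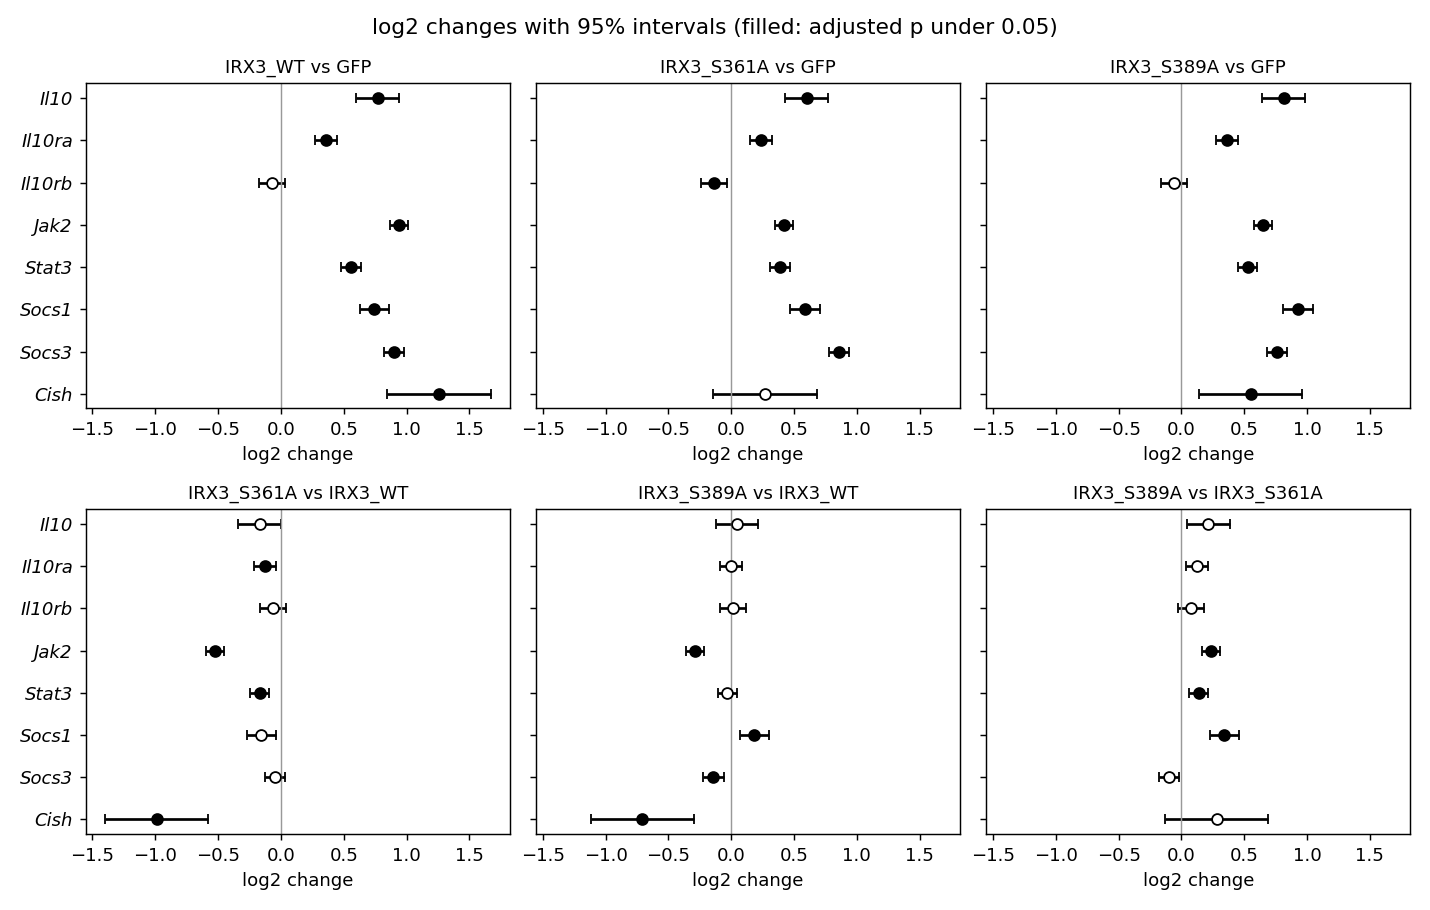
Change on the log2 scale (x axis) of the 8 genes tested, 1 panel per comparison, with 95% intervals from the fit over all genes; filled points passed the test. The 3 panels against GFP share the GFP libraries; in them Jak2 runs from 0.42 to 0.94, and against IRX3_WT Jak2 and Cish lie below 0 for both mutants.

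The SOCS genes encode inhibitors with a SOCS box, which recruits a ubiquitin ligase. Socs3 (ENSMUSG00000053113.3, mm10 chromosome 11, 117966079 to 117970047) had normalized counts of 10083, 9892 and 9228 with IRX3_S389A, 10591, 10610 and 10002 with IRX3_S361A, 10028, 11049 and 11133 with IRX3_WT, and 5660, 5748 and 5793 with GFP. The IRX3 constructs overlapped each other and all stood above GFP. Relative to GFP, Socs3 rose by 0.90 on the log2 scale with IRX3_WT (SE 0.04, limma adjusted p = 2.01e-20), by 0.86 with IRX3_S361A (adjusted p = 7.18e-19) and by 0.76 with IRX3_S389A (adjusted p = 5.57e-18). IRX3_S361A did not pass the test against IRX3_WT (log2 difference -0.04, 95% interval -0.12 to 0.04, limma adjusted p = 0.520). With IRX3_S389A it was below IRX3_WT by a log2 change of -0.14 (limma adjusted p = 0.0116), a call that ended without IRX3_WT replicate 2 (0.0638) or 3 (0.0837) or IRX3_S389A replicate 3 (0.0933).

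Socs1 (ENSMUSG00000038037.5, mm10 chromosome 16, 10782240 to 10785536) had normalized counts of 1846, 1707 and 1669 with IRX3_S389A, 1482, 1366 and 1278 with IRX3_S361A, 1527, 1580 and 1486 with IRX3_WT, and 888, 986 and 869 with GFP. IRX3_S389A was the highest here, and no construct overlapped another. Relative to GFP, Socs1 rose by 0.93 on the log2 scale with IRX3_S389A (SE 0.06, limma adjusted p = 4.84e-16), by 0.74 with IRX3_WT (adjusted p = 1.58e-13) and by 0.59 with IRX3_S361A (adjusted p = 1.88e-10). IRX3_S389A exceeded IRX3_S361A by 0.34 (limma adjusted p = 5.02e-05), which held in all 12 fits without 1 library. This difference was not called with edgeR on the 9 libraries, which hold 1 IRX3_S361A library and lack IRX3_S389A replicate 2. IRX3_S389A exceeded IRX3_WT by 0.18 (limma adjusted p = 0.0243), but not without IRX3_WT replicate 1 (0.0629) or 3 (0.102) or IRX3_S389A replicate 1 (0.170). IRX3_S361A differed from IRX3_WT by -0.16 (95% interval -0.27 to -0.04, limma adjusted p = 0.0580), which passed the test without IRX3_S361A replicate 1 (0.0151) and with the filter raised to 50 normalized counts (0.0498). Per kilobase of exon, the ratio of Socs3 to Socs1 was 5.63 ± 0.18 with IRX3_S389A, 7.63 ± 0.38 with IRX3_S361A, 7.06 ± 0.47 with IRX3_WT and 6.33 ± 0.43 with GFP (SD, n = 3 each). The lowest IRX3_S361A ratio was 7.19 and the highest IRX3_S389A ratio was 5.83.

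Socs2 (ENSMUSG00000020027.18, mm10 chromosome 10, 95385362 to 95417180), which restrains growth hormone signalling, was scarcely detected. Its normalized counts were 3.10, 3.02 and 3.05 with IRX3_S389A, 5.06, 1.99 and 0 with IRX3_S361A, 1.97, 3.12 and 2.28 with IRX3_WT, and 2.78, 6.45 and 2.67 with GFP. That is 0 to 7 reads per library, at or near the floor of 3 reads. Socs2 did not pass the filter of 10 normalized counts in 3 libraries, and no difference between constructs was detectable at this depth.

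Cish (ENSMUSG00000032578.7, mm10 chromosome 9, 107296026 to 107302784), an inhibitor induced by STAT5, was the gene of the 8 tested on which the mutants stood furthest below IRX3_WT. Its normalized counts were 55.8, 57.4 and 60.0 with IRX3_S389A, 58.7, 44.7 and 40.2 with IRX3_S361A, 82.7, 98.6 and 105 with IRX3_WT, and 46.4, 42.4 and 30.3 with GFP. The IRX3_WT libraries lay above the other 9, while IRX3_S361A overlapped both IRX3_S389A and GFP. Cish rose by 1.26 on the log2 scale with IRX3_WT relative to GFP (SE 0.20, limma adjusted p = 3.02e-06). With IRX3_S361A it changed relative to IRX3_WT by -0.99 in log2 units (limma SE 0.20, adjusted p = 0.000464, or 0.123 with edgeR on the 9 libraries). IRX3_S361A did not pass the test against GFP (log2 difference 0.27, 95% interval -0.14 to 0.68, limma adjusted p = 0.373). With IRX3_S389A it changed relative to IRX3_WT by -0.71 (limma adjusted p = 0.0131, or 0.0699 without IRX3_WT replicate 3). The rise of 0.55 with IRX3_S389A relative to GFP (limma adjusted p = 0.0316) ended without GFP replicate 3 (0.206) or IRX3_S389A replicate 1 (0.0541), 2 (0.0652) or 3 (0.0799). It also ended with equal totals (0.112), with no filter on low genes (0.0638) and with edgeR on all 12 (0.0505) or on the 9 libraries (0.0887). Annotated genes on the opposite strand cover 11.5% of the exon bases of Cish, and the strand setting of the counting is not given in the sources used here.

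The genes differed widely in level. Per kilobase of exon, the means with IRX3_WT were 3714 ± 213 normalized counts for Socs3, 2452 ± 80.7 for Jak2, 1545 ± 68.2 for Il10ra, 553 ± 13.0 for Stat3, 527 ± 16.3 for Socs1, 411 ± 5.51 for Il10rb, 400 ± 8.73 for Il10 and 14.9 ± 1.77 for Cish (SD, n = 3 each). The length is the union of exons of all annotated transcripts, so a gene with long exons that are not used here is placed too low. Socs3 stood first and Cish last of these 8 under each construct.

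**Figure D3:**
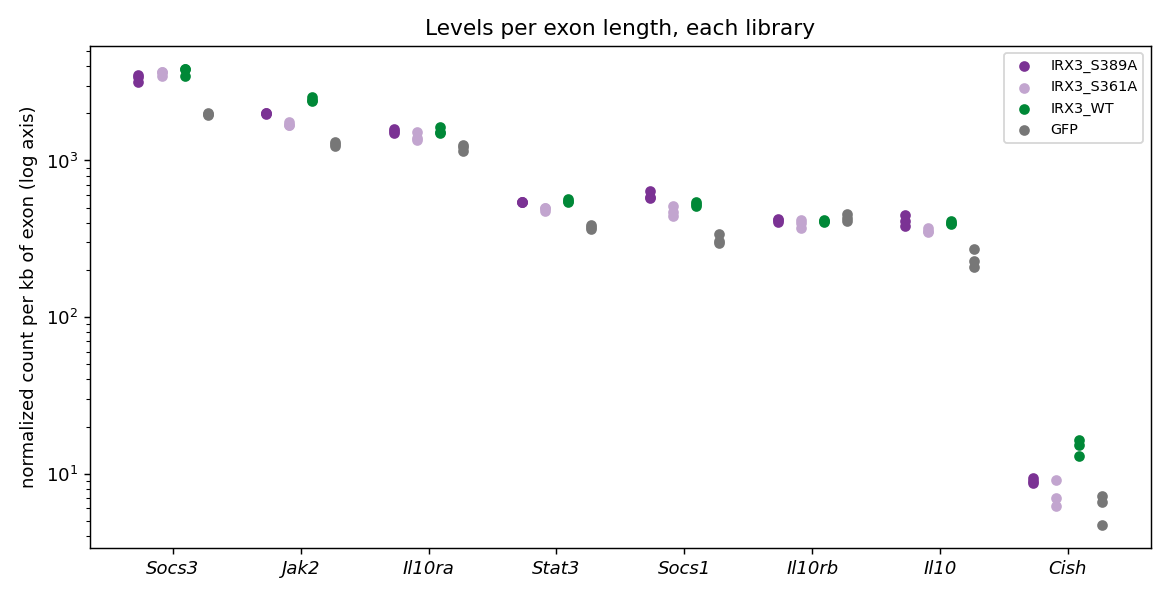
Normalized counts per kilobase of exon (log axis) of the 8 genes tested, in each library, coloured by construct. Socs3 lies at the top, with a GFP mean of 1983, and Cish at the bottom, with means of 6.18 with GFP to 14.9 with IRX3_WT.

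Counted together, the 8 genes tested gave 7 higher and 0 lower for IRX3_WT vs GFP, where 21.0% of all 13369 genes tested were higher, 18.6% lower and 39.6% either. Their median log2 change was 0.76, beside -0.006 over all genes tested. The genes were chosen with earlier results of these data known. For IRX3_S361A vs GFP the count was 6 higher and 1 lower, with 14.9% and 10.9% of all genes (25.9% either). For IRX3_S389A vs GFP it was 7 higher and 0 lower, with 18.8% and 16.2% of all genes (35.0% either). These 3 comparisons share the GFP libraries. Relative to IRX3_WT the count was 0 higher and 4 lower with IRX3_S361A, where 6.43% of all genes were higher and 9.07% lower (15.5% either), and 1 higher and 3 lower with IRX3_S389A, where 8.21% and 7.08% were (15.3% either). IRX3_S389A against IRX3_S361A gave 3 higher and 0 lower, with 7.00% and 3.16% of all genes (10.2% either). Between the mutants, the genes not called had log2 differences of 0.21 for Il10 (95% interval 0.04 to 0.38), 0.12 for Il10ra (0.04 to 0.21), 0.08 for Il10rb (-0.02 to 0.18), -0.10 for Socs3 (-0.18 to -0.02) and 0.28 for Cish (-0.13 to 0.69). Of these, Il10ra (limma adjusted p = 0.0593) could pass the test when 1 library was left out (lowest adjusted p = 0.00833). Over all 4 groups 7 of the 8 differed, the exception being Il10rb (limma adjusted p = 0.143), where 44.2% of all genes did. Libraries of the compared constructs did not overlap for 7 of the 8 genes in IRX3_WT vs GFP (48.4% of all genes), 6 in IRX3_S361A vs GFP (39.6%), 7 in IRX3_S389A vs GFP (46.4%), 5 in IRX3_S361A vs IRX3_WT (29.3%), 3 in IRX3_S389A vs IRX3_WT (29.1%) and 4 in IRX3_S389A vs IRX3_S361A (25.9%).

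With libraries scaled to equal totals, the median of all genes moved by -0.176 on the log2 scale for IRX3_WT vs GFP, -0.113 for IRX3_S361A vs GFP and -0.169 for IRX3_S389A vs GFP. The split of all genes for IRX3_WT vs GFP was then 1396 higher and 5523 lower, against 2805 and 2483 as deposited. For IRX3_S361A vs GFP it was 1053 higher and 3233 lower, for IRX3_S389A vs GFP 1334 higher and 5401 lower, for IRX3_S361A vs IRX3_WT 1806 higher and 752 lower and for IRX3_S389A vs IRX3_S361A 596 higher and 1060 lower. The 8 genes then gave 7 higher and 1 lower for IRX3_WT vs GFP, 6 higher and 1 lower for IRX3_S361A vs GFP and 6 higher and 1 lower for IRX3_S389A vs GFP, with Il10rb the lower one each time. Between IRX3_S389A and IRX3_S361A they gave 2 higher and 1 lower, the lower one being Socs3 (-0.15, limma adjusted p = 0.00876).

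Of 12 genes listed as interleukin 10 targets in macrophages, 12 were higher with IRX3_WT than with GFP (median log2 change 0.58), 11 with IRX3_S361A (0.47) and 11 with IRX3_S389A (0.59), and 0 were lower. Over all genes tested the shares higher were 21.0%, 14.9% and 18.8% in these comparisons. The list was chosen with earlier results of these data known. With equal totals 11, 11 and 10 of the listed genes were higher and 0 lower. All genes then split into 1396 higher and 5523 lower, 1053 and 3233, and 1334 and 5401. Relative to IRX3_WT the 12 genes split into 3 higher and 4 lower with IRX3_S361A and 3 higher and 4 lower with IRX3_S389A. Of all genes tested, 6.43% were higher and 9.07% lower with IRX3_S361A, and 8.21% and 7.08% with IRX3_S389A. Il1rn, which encodes the interleukin 1 receptor antagonist, averaged 15000 ± 452 normalized counts with IRX3_S389A, 11924 ± 663 with IRX3_S361A, 11610 ± 25.5 with IRX3_WT and 8764 ± 259 with GFP (SD, n = 3 each). It rose by 0.37 on the log2 scale with IRX3_S389A relative to IRX3_WT (limma adjusted p = 1.52e-09). Zfp36, which encodes the mRNA-destabilizing protein tristetraprolin, averaged 8190 ± 224 normalized counts with IRX3_S389A, 6859 ± 395 with IRX3_S361A, 6960 ± 228 with IRX3_WT and 4361 ± 36.7 with GFP, and rose by 0.23 with IRX3_S389A relative to IRX3_WT (adjusted p = 3.21e-05). Hmox1, which encodes haem oxygenase 1, averaged 7506 ± 319 normalized counts with IRX3_S389A, 6002 ± 191 with IRX3_S361A, 8123 ± 497 with IRX3_WT and 4914 ± 66.6 with GFP. It was lower with IRX3_S361A than with IRX3_WT by a log2 change of -0.44 (limma adjusted p = 2.02e-10). Etv3, which encodes a transcriptional repressor, rose by 0.31 with IRX3_S389A relative to IRX3_WT (limma adjusted p = 1.92e-06).

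Of 9 other Janus kinase and STAT genes, 6 higher and 1 lower were called for IRX3_WT vs GFP, or 4 higher and 1 lower with equal totals. For that comparison 21.0% of all genes tested were higher and 18.6% lower, or 1396 higher and 5523 lower in number with equal totals. Stat5a, which acts below the GM-CSF receptor, averaged 897 ± 49.5 normalized counts with IRX3_S389A, 742 ± 27.0 with IRX3_S361A, 927 ± 49.6 with IRX3_WT and 598 ± 28.9 with GFP (SD, n = 3 each). It was lower with IRX3_S361A than with IRX3_WT by a log2 change of -0.32 (limma adjusted p = 0.000279, or 0.0600 with edgeR on the 9 libraries). Jak1, the kinase bound to Il10ra, rose by 0.31 with IRX3_WT relative to GFP (limma adjusted p = 5.54e-09). Stat2, of the interferon receptor pathway, rose by 0.19 with IRX3_S389A relative to IRX3_WT (limma adjusted p = 0.000569). Of 13 other inhibitors of the pathway, 4 higher and 2 lower were called for IRX3_WT vs GFP, or 2 higher and 5 lower with equal totals, where 21.0% of all genes tested were higher and 18.6% lower as deposited and 1396 higher and 5523 lower in number with equal totals. Ptpn1, which encodes a tyrosine phosphatase that acts on JAK2, averaged 4403 ± 261 normalized counts with IRX3_S389A, 4378 ± 192 with IRX3_S361A, 5404 ± 146 with IRX3_WT and 3220 ± 19.9 with GFP. Relative to IRX3_WT it changed by -0.30 with IRX3_S389A (limma adjusted p = 2.17e-06) and by -0.30 with IRX3_S361A (adjusted p = 9.90e-07). Sh2b3, which encodes an adaptor that restrains JAK2, changed by -0.35 with IRX3_WT relative to GFP (limma adjusted p = 2.75e-07). Of 4 partners of the SOCS box, 1 higher and 0 lower were called for IRX3_WT vs GFP, or 0 higher and 2 lower with equal totals, beside the same shares of all genes. The one that passed was Eloc, up by 0.24 (limma adjusted p = 0.00273, or 0.438 with equal totals).

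Of 8 receptors that signal through STAT3, 6 passed the filter, and 1 higher and 3 lower were called for IRX3_WT vs GFP, where 21.0% of all genes tested were higher and 18.6% lower. Il6ra, the interleukin 6 receptor chain, averaged 235 ± 19.4 normalized counts with IRX3_S389A, 301 ± 27.5 with IRX3_S361A, 199 ± 22.0 with IRX3_WT and 523 ± 17.3 with GFP (SD, n = 3 each). GFP was the highest, unlike for Il10ra. Its log2 change was -1.40 with IRX3_WT relative to GFP (limma adjusted p = 8.79e-15), and it rose by 0.60 with IRX3_S361A relative to IRX3_WT (adjusted p = 1.74e-05). Il6st, which encodes gp130, changed by -0.42 with IRX3_WT relative to GFP (limma adjusted p = 1.12e-06), and Csf3r, the G-CSF receptor, rose by 0.78 (adjusted p = 5.63e-15). Of 7 receptors that signal through STAT5, 4 passed the filter, and all 4 were higher with each IRX3 construct than with GFP (all genes: 21.0% with IRX3_WT, 14.9% with IRX3_S361A and 18.8% with IRX3_S389A). Csf2ra lost its call for IRX3_S389A in 4 of the 12 fits without 1 library (limma adjusted p up to 0.206). Il3ra lost its call in 2 such fits for IRX3_S389A, 1 for IRX3_S361A and 1 for IRX3_WT (up to 0.0962). The calls of Csf2rb and Csf2rb2 against GFP were kept in all 12, as were those of Csf2ra for IRX3_WT and IRX3_S361A. With equal totals the counts were 1 higher and 0 lower for IRX3_WT, 2 higher and 0 lower for IRX3_S361A and 2 higher and 0 lower for IRX3_S389A. All genes then split into 1396 higher and 5523 lower, 1053 and 3233, and 1334 and 5401 in these comparisons. Csf2rb, the shared chain of the GM-CSF receptor, rose by 0.54 with IRX3_WT relative to GFP (limma adjusted p = 2.14e-14), though reads may be split between it and its near copy Csf2rb2. Csf2ra, the chain specific to GM-CSF, rose by 0.15 (limma adjusted p = 0.00169), but with equal totals its log2 difference was -0.03.

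**Figure D4:**
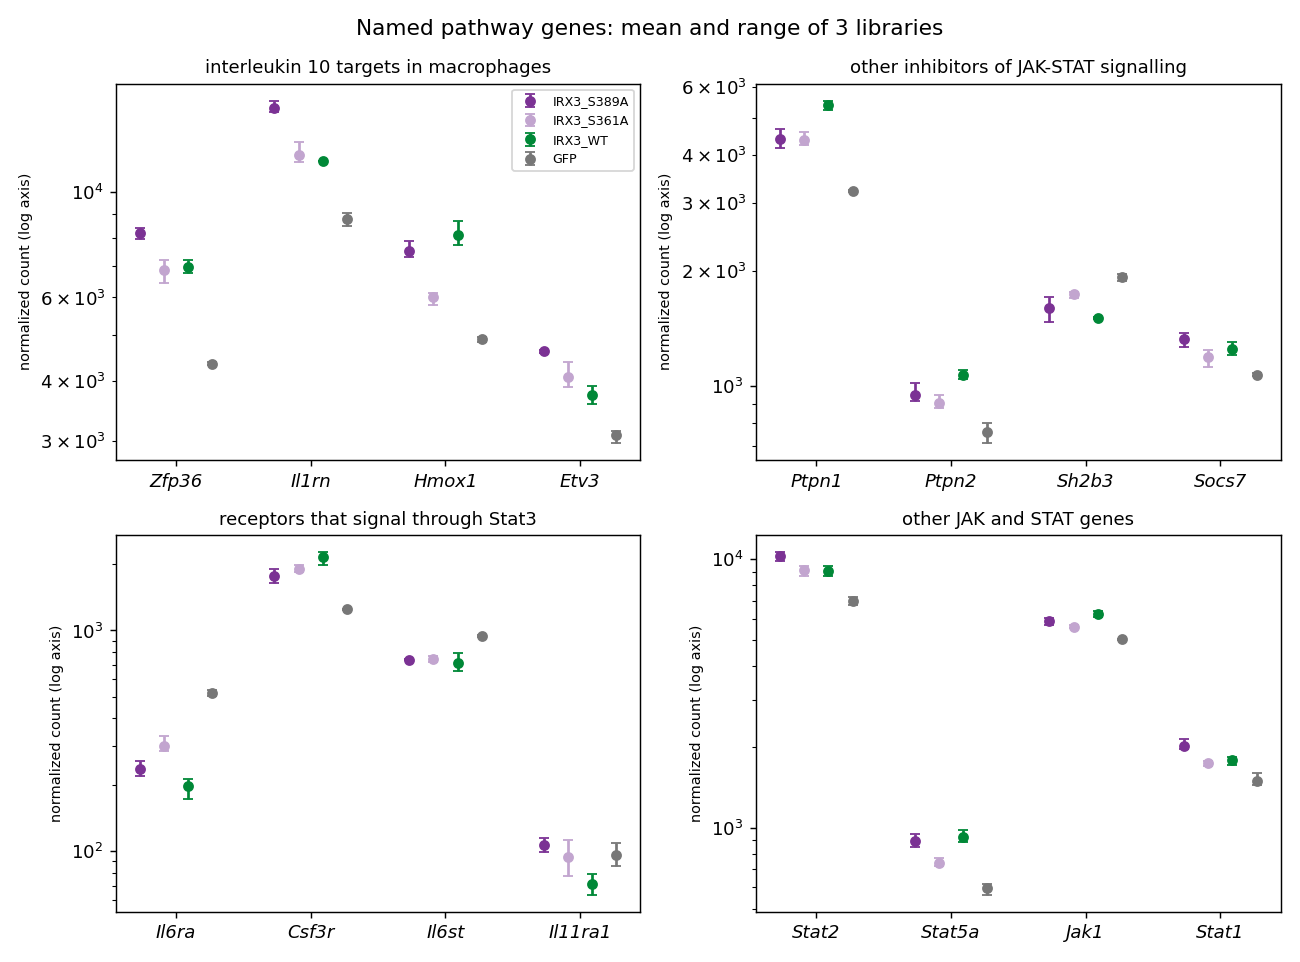
Normalized counts (log axes) of the named genes of 4 pathway lists, 1 panel each, as the mean (point) and range (bar) of 3 libraries per construct. Il6ra and Il6st lie highest with GFP, with means of 523 and 945, and Ptpn1 highest with IRX3_WT, with a mean of 5404.

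Of 14 regulators of Il10 transcription, 9 higher and 0 lower were called for IRX3_WT vs GFP, or 3 higher and 4 lower with equal totals, where 21.0% of all genes tested were higher and 18.6% lower as deposited and 1396 higher and 5523 lower in number with equal totals. Prdm1, which encodes BLIMP1, averaged 677 ± 20.0 normalized counts with IRX3_S389A, 545 ± 43.2 with IRX3_S361A, 779 ± 14.6 with IRX3_WT and 460 ± 50.4 with GFP (SD, n = 3 each). It was lower with IRX3_S361A than with IRX3_WT by a log2 change of -0.52 (limma adjusted p = 1.81e-06). Maf, which encodes an activator of Il10, averaged 7551 ± 308 normalized counts with IRX3_S389A, 7116 ± 252 with IRX3_S361A, 6369 ± 31.1 with IRX3_WT and 6162 ± 241 with GFP. It rose relative to IRX3_WT by 0.24 with IRX3_S389A (limma adjusted p = 1.07e-05) and by 0.16 with IRX3_S361A (adjusted p = 0.00272, or 0.299 with edgeR on the 9 libraries). The kinase gene Map3k8 rose by 0.33 with IRX3_WT relative to GFP (limma adjusted p = 1.67e-06). Of 9 other ligands and receptors of the interleukin 10 family, Il19 and Il20rb passed the filter. Il19 averaged 25.6 ± 9.37 normalized counts with IRX3_WT and 8.53 ± 2.19 with GFP, and since it passed the filter only through the IRX3 libraries, no test of it against GFP is given. Il20rb averaged 289 ± 26.9 and 198 ± 16.3 in the same groups, up by 0.54 (limma adjusted p = 2.89e-05).

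By correlation of log2 levels over the 12 libraries, the genes most like Il10 among 8743 candidates were Map2k1 (Pearson 0.974, Spearman 0.944), Parp8 (Pearson 0.973, Spearman 0.937), Gch1 (Pearson 0.972, Spearman 0.881), Tfec (Pearson 0.971, Spearman 0.923) and B3gnt2 (Pearson 0.970, Spearman 0.972). Genes among those most like Socs3 were Cp (Pearson 0.986, Spearman 0.832), Fas (Pearson 0.985, Spearman 0.846), Plagl2 (Pearson 0.984, Spearman 0.755) and Pik3r5 (Pearson 0.984, Spearman 0.790). For Cish they were Btg1 (Pearson 0.933, Spearman 0.825), Aebp2 (Pearson 0.932, Spearman 0.916), Itgav (Pearson 0.931, Spearman 0.937), Rasgrp1 (Pearson 0.927, Spearman 0.846) and Ppt2 (Pearson 0.925, Spearman 0.881). The libraries fall into groups by construct, so these values describe how alike the group levels are, and no p is given.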

How the data were processed

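RNA-seq was measured in 12 libraries, 3 per construct. Per the submitters' processing notes, the mm10 build, StringTie 1.3.5, HISAT2 2.1.0 and Trimmomatic entered the processing. What counted the reads, with which strand setting and annotation, is not given in the sources used here. The deposited signal is gene counts divided by 1 size factor per library: in every column 100% of values were whole multiples of 1 step (tolerance 1e-06), and whole reads are claimed for the 9 libraries whose step is not within 1% of 1. A gene entered the test if 3 or more libraries held 10 normalized counts or more (13369 genes did). The test was limma 3.58.1 (R 4.3.3, trend and robust) on log2(value + 1), with all 12 libraries in 1 fit of 4 group means. The pseudocount makes log2 changes of low genes smaller. P-values were adjusted by Benjamini-Hochberg over all genes tested, with a threshold of 0.05. Intervals of log2 changes are at 95%, and counting floors cover counting error only. The quasi-likelihood test of edgeR 4.0.16 on recovered reads was added after seeing the data. Its fit on 9 libraries leaves out IRX3_S361A replicates 2 and 3 and IRX3_S389A replicate 2. Where a call ended there, fewer libraries and a weaker difference cannot be told apart. The scripts were tested on simulated data.

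The members and lists were chosen with earlier results of these data known. Named beside the 9 members were up to 4 genes of each pathway list with the smallest p over the 4 groups (adjusted p under 0.05), and the 5 genes most correlated with Il10, Socs3 and Cish (symbols starting with Gm or ending in Rik left out). For Socs3, 1 of the 5 is not reported here. Symbols, positions and exon lengths came from GENCODE M21 (GRCm38, the assembly of mm10), and promoters from RefSeq GRCm38.p6.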

Additional observations from a re-analysis of the deposited data

How the results depend on the processing

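Of 32 calls of the 8 genes tested, 25 were kept in all 12 fits that left out 1 library, and the other 7 are named in the report. Of 113 calls of the other named genes, 92 were kept and 21 lost in at least 1 such fit. In those fits the number of the 8 genes called ran 7 to 7 for IRX3_WT vs GFP, 6 to 7 for IRX3_S361A vs GFP, 6 to 7 for IRX3_S389A vs GFP, 3 to 5 for IRX3_S361A vs IRX3_WT, 2 to 4 for IRX3_S389A vs IRX3_S361A and 1 to 4 for IRX3_S389A vs IRX3_WT, where Jak2 alone was called without IRX3_WT replicate 3. Pseudocounts of 0.5 and 5 ended none of these calls and added none among the 8 genes; added calls of the other named genes were not looked for. Replicate numbers are shared between groups, but deviations of same-numbered libraries did not go together (18 correlations from -0.041 to 0.0297; 3 of 12 libraries correlated best with their own number). With the replicate block, 5241 genes were called for IRX3_WT vs GFP in place of 5288, and of the 8 genes it added Socs1 for IRX3_S361A vs IRX3_WT (adjusted p = 0.0463). With edgeR on the 9 libraries where whole reads are claimed, which hold 1 IRX3_S361A library, assumed to vary like the other groups, 1240 genes and 1 of the 8 were called for IRX3_S361A vs IRX3_WT (edgeR on 12 libraries 2010 and 3, limma 2071 and 4). It called 2126 for IRX3_S361A vs GFP (edgeR on 12 libraries 3469, limma 3457), and 360 and 1 of the 8 for IRX3_S389A vs IRX3_S361A (edgeR on 12 libraries 1253 and 3, limma 1359 and 3). Values that were not called turned direction there for Il10 (-0.0190) and Il10rb (-0.00103) in IRX3_S389A vs IRX3_WT, Il10rb in IRX3_S361A vs IRX3_WT (0.0136) and IRX3_S389A vs IRX3_S361A (-0.0147), and Cish in IRX3_S389A vs IRX3_S361A (-0.0243). Equal totals turned Il10ra in IRX3_S389A vs IRX3_WT (0.00723), Il10rb (0.000800) and Socs3 (0.0185) in IRX3_S361A vs IRX3_WT, and the called Csf2ra against GFP (-0.0299 for IRX3_WT, -0.0625 for IRX3_S389A). Of the 113 calls of the other named genes, equal totals kept 91, ended 20 and turned the 2 of Csf2ra. Without 1 library, IRX3_S389A vs IRX3_WT ran -0.0141 to 0.102 for Il10 and -0.0210 to 0.0361 for Il10ra. The cause was not tested. With 0 to 7 reads per library, Socs2 could not be compared.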
